A study of Mus musculus with 11 samples.

Results

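Of the 55401 genes counted in sorted mouse islet cells, the 5 described here, *Anpep*, *Enpep*, *Dpp4*, *Mme* and *Ace*, encode peptidases of the cell surface. They were taken from the count table by gene symbol. *Anpep* was chosen by its measured counts, which were higher in the libraries with the label NNAT-positive than in those of both other fractions. Its differences to those fractions are therefore a description with no test, and the other 4 genes were added as related enzymes. RNA-seq libraries had been made from islet cells of 4 mice sorted by FACS. The labels give 4 of the 11 libraries as NNAT-positive beta cells, 4 as NNAT-negative beta cells and 3 as non-beta cells, and the beta cell fractions are called labelled-positive and labelled-negative below. Mouse 4 had no non-beta library.

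All groups shared one background. The mice were male C57BL6/J animals of 10 weeks by the labels (the study's text also gives a younger age), fed chow, that carried RIP-Cre, STOP-tdTomato and Nnat-EGFP. Cre under the rat insulin promoter (RIP) switched on tdTomato in beta cells, and eGFP under the *Nnat* promoter, carried by a transgene, split the beta cells into the NNAT-positive and NNAT-negative fractions. The non-beta fraction held the hormone genes of alpha, delta and PP cells as well as endothelial, stromal, leukocyte and acinar genes, and all 10 beta cell markers were higher in each beta cell fraction than in it.

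The endogenous *Nnat* mRNA ran against the labels. In counts per 1000000 counts of library size (CPM), *Nnat* was at 50.5, 46.4, 46.0 and 101 in the labelled-positive libraries of mice 1 to 4. It was at 74.8, 80.8, 66.5 and 153 in the labelled-negative libraries and at 12.9, 29.9 and 17.4 in the non-beta libraries of mice 1 to 3. Within each of the 4 mice, *Nnat* was lower in the labelled-positive library, with a log2 difference of −0.62 ± 0.17 (SE) that did not pass the test (edgeR adjusted *p*=0.444). The sources used here also do not name the beta cell fractions alike, since the study gives the values of these libraries elsewhere with the names NNAT-positive and NNAT-negative exchanged. Which of the fractions is the NNAT-positive one is therefore not settled, and every direction between them below is a direction between libraries as labelled. Total counts per library were between 30420352 and 43238376.

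The proteins of this group sit in the plasma membrane with the catalytic domain facing outwards, and all but DPP4 are zinc metallopeptidases. They cut peptide hormones, neuropeptides and cytokines at the cell surface, and they are known from the brush borders of the kidney and the gut, from vascular endothelium and from leukocytes. In the islet they are of interest because incretin hormones, angiotensins and other signalling peptides are among their substrates.

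The start regions of 4 members are shown, so that those of *Anpep* and *Enpep*, higher in the labelled-positive libraries in all mice, can be read beside those of *Dpp4*, level between the beta cell fractions, and *Ace*, nearly absent from them. Each is the 250 bases before the transcription start, 5′ to 3′ on the gene's strand, from RefSeq on GRCm38.p6. Capitals mark the matches to GGGCGG, the core of a GC box, and to TATAAA, the element bound by the TATA-binding protein, on either strand. The windows are chr7:79848211-79848460 on the minus strand for *Anpep*, chr3:129332750-129332999 on the minus strand for *Enpep*, chr2:62412232-62412481 on the minus strand for *Dpp4* and chr11:105967698-105967947 on the plus strand for *Ace*.
Anpep: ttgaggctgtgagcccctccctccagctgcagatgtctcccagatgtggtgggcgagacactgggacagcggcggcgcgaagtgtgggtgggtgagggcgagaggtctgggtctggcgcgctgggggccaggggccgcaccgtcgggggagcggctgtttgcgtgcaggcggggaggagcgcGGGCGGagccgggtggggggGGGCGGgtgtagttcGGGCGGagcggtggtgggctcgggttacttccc
Enpep: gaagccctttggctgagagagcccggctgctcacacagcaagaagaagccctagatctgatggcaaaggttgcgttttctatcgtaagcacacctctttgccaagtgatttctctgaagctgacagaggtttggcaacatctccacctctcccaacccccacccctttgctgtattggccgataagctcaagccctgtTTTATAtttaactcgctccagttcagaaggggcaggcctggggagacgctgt
Dpp4: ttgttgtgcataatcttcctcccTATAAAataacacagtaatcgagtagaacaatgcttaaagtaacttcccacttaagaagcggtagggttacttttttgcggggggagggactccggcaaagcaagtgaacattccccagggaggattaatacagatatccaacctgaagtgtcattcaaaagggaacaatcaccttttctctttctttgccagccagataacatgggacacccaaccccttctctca
Ace: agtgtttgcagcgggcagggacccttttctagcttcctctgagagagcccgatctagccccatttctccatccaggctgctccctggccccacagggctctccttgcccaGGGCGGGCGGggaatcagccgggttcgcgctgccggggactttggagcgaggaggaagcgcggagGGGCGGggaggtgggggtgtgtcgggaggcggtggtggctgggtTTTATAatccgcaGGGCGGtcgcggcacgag

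The *Anpep* window held 23 CG dinucleotides and 3 matches to GGGCGG, which began 68, 48 and 33 bases before the start. The *Ace* window held 19 CG dinucleotides, 4 matches to GGGCGG of which 2 overlap, and 1 match to TATAAA on the other strand, 31 bases before the start. The *Enpep* and *Dpp4* windows were poorer in CG, with 6 and 4 CG dinucleotides, no match to GGGCGG and 1 match each to TATAAA. That of *Enpep* was on the other strand, 52 bases before the start, and that of *Dpp4* on the gene's strand, 227 bases before it. Over the 32851 windows of all genes the median was 6 CG dinucleotides, with an upper quartile of 16. GGGCGG was in 32.7% of those windows and TATAAA in 12.4%, so none of these matches is rare. Searched on both strands, GTTAAT from the motif of HNF1, TGANTCA from that of AP-1 and TAATTA from that of homeodomain factors were in none of these 4 windows, and in 6.43%, 6.75% and 4.84% of all windows. RefSeq lists 3 starts for *Mme* and a further one for *Ace*, whose window, chr11:105974939-105975188, had neither GGGCGG nor TATAAA and 1 CG dinucleotide.

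By the GENCODE annotation on GRCm38, *Anpep* spans chr7:79821803-79861059 with 6 annotated transcripts, 4 of them coding. Their coding starts lie both downstream of the RefSeq start and up to 12849 bases upstream of it, and counts per gene do not separate them. *Enpep* spans chr3:129269175-129332720, *Dpp4* chr2:62330073-62412231, *Mme* chr3:63241537-63386030 and *Ace* chr11:105967945-105989964. *Dpp4* shares 232 exonic bases with *Gm13561* and *Ace* shares 295 with *Gm11651*, each on the opposite strand, and the strand setting of the counting is not given in the sources used here.

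*Anpep* encodes aminopeptidase N, which removes neutral amino acids from the N-terminus of peptides. It was at 214, 195, 138 and 145 CPM in the labelled-positive libraries of mice 1 to 4, with a mean of 173 ± 37.0 (SD, *n*=4). In the labelled-negative libraries it was at 108, 96.2, 58.9 and 56.8 CPM (79.9 ± 26.0, *n*=4). In the non-beta libraries it was at 106, 124 and 86.3 CPM (106 ± 19.0, *n*=3). The lowest labelled-positive library, at 138 CPM, lay above the highest of all other libraries, at 124 CPM, and the labelled-negative libraries overlapped the non-beta ones. This separation is what *Anpep* was chosen for. Of all 17424 genes tested, 0.241% had every labelled-positive library above every other library, 1.72% above every labelled-negative library and 21.9% above every non-beta library.

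Within a mouse, *Anpep* was 1.98-, 2.02-, 2.34- and 2.56-fold as high in the labelled-positive library as in its labelled-negative partner for mice 1 to 4. The fitted log2 difference was 1.14 ± 0.10 (SE), or 2.21-fold. Against non-beta cells of the same mouse it was 2.01-, 1.57- and 1.60-fold as high in mice 1 to 3, with a fitted log2 difference of 0.81 ± 0.11. Both are descriptions, and no *p* is given for them. Without mouse 4, whose *Nnat* level stood apart in both beta cell fractions, the difference between the beta cell fractions was 1.03 ± 0.12.

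The levels in the labelled-negative and non-beta libraries both entered the choice of *Anpep*, though the difference between them did not. A test of that difference is therefore not fully independent of the choice. Between the labelled-negative libraries and non-beta cells, the log2 difference was −0.34 ± 0.11 (95% interval −0.59 to −0.09). It did not pass the adjusted *p* threshold of 0.01 (adjusted *p*=0.0290). Its sign differed between mice, with *Anpep* lower in 2 of 3. The call depended on mouse 1, whose pair of libraries was nearly level at a log2 difference of 0.02. Without that mouse the difference was −0.50 with an adjusted *p* of 0.00629, and DESeq2 with all mice also called it (−0.40, adjusted *p*=0.00133). In bulk libraries such as these, fewer cells with a transcript and less transcript per cell cannot be told apart.

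**Figure D1:**
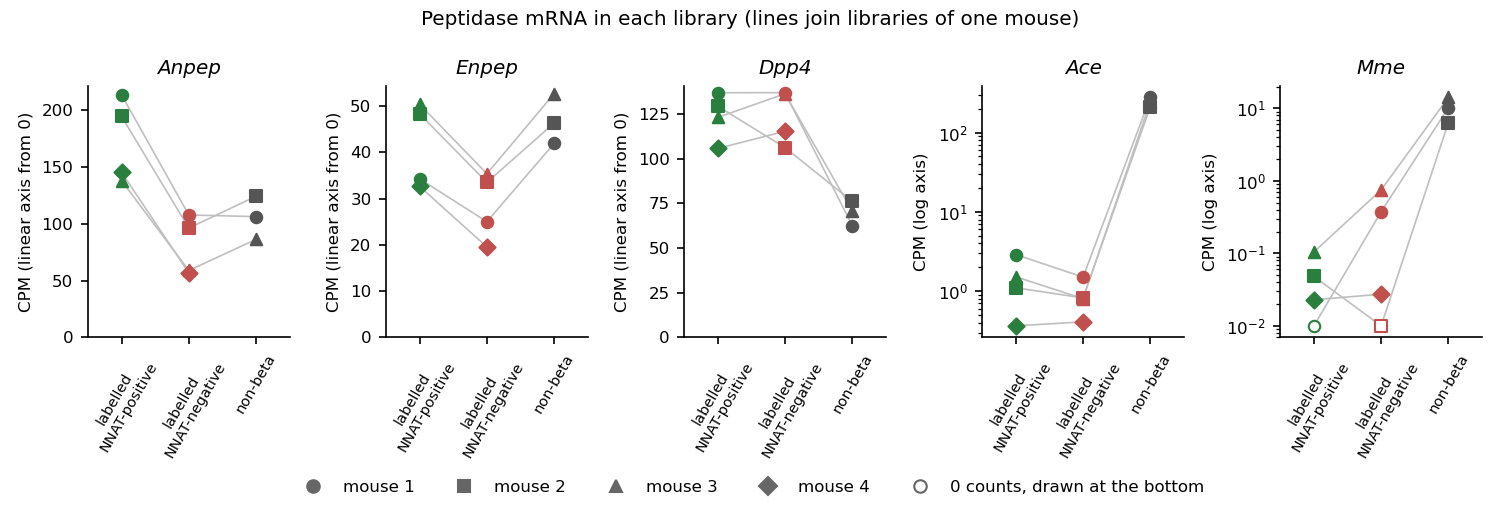
CPM of the 5 peptidase genes (vertical axis; linear from 0 for *Anpep*, *Enpep* and *Dpp4*, logarithmic for *Ace* and *Mme*) in each library of the 3 fractions, with a symbol for each mouse and lines joining libraries of one mouse. *Anpep* lies between 138 and 214 CPM in the labelled-positive libraries and at or below 124 CPM elsewhere, *Dpp4* is at least 106 CPM in every beta cell library and at most 76.0 CPM in non-beta cells, and *Ace* and *Mme* are high in non-beta cells alone.

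*Enpep* encodes aminopeptidase A, the close relative of aminopeptidase N that removes acidic residues and converts angiotensin II to angiotensin III. It was at 34.3, 48.3, 50.4 and 32.6 CPM in the labelled-positive libraries of mice 1 to 4 (41.4 ± 9.25, *n*=4). The labelled-negative libraries had *Enpep* at 25.0, 33.5, 35.4 and 19.5 CPM (28.4 ± 7.42, *n*=4). The non-beta libraries of mice 1 to 3 had 42.0, 46.4 and 52.7 CPM (47.0 ± 5.42, *n*=3). The beta cell fractions overlapped as groups, with mice 1 and 4 low in each, but within a mouse *Enpep* was higher in the labelled-positive library in 4 of 4 mice. A gene was higher in all 4 mice in 11.4% of the genes tested.

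The *Enpep* ratio within a mouse was between 1.37 and 1.67, smaller than that of *Anpep* in each of the 4 mice. The choice of *Anpep* by its counts favours this order. The fitted log2 difference of *Enpep* was 0.56 ± 0.09 (95% interval 0.35 to 0.77), and it did not pass the threshold (adjusted *p*=0.0715). DESeq2 did call it (0.52, adjusted *p*=5.58e-05). The labelled-positive libraries stood at −0.07 on the log2 scale relative to non-beta cells (95% interval −0.30 to 0.16, adjusted *p*=0.622). In the labelled-negative libraries *Enpep* was lower than in non-beta cells, by −0.63 ± 0.10 on the log2 scale (adjusted *p*=0.000563) and in 3 of 3 mice. Every non-beta library lay above every labelled-negative library, as did 28.9% of the genes tested. This call was lost with no block for the mouse (adjusted *p*=0.0184) and with the libraries of these fractions alone (adjusted *p*=0.0157). The test of whether *Enpep* stood differently to non-beta cells in the beta cell fractions is the comparison between those fractions, which did not pass.

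*Dpp4* encodes dipeptidyl peptidase 4, a serine peptidase that inactivates the incretins GLP-1 and GIP by clipping a dipeptide from their N-terminus. It was at 137, 129, 123 and 106 CPM in the labelled-positive libraries of mice 1 to 4 (124 ± 13.3, *n*=4). Its values were 137, 106, 136 and 115 CPM in the labelled-negative libraries (124 ± 15.4, *n*=4). In non-beta cells it was at 62.6, 76.0 and 70.7 CPM (69.8 ± 6.78, *n*=3). The beta cell fractions had the same mean and overlapped fully, and all 8 beta cell libraries lay above all 3 non-beta libraries, as did 16.5% of the genes tested.

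Between the beta cell fractions the log2 difference of *Dpp4* was −0.0018, with a 95% interval of −0.23 to 0.23 (adjusted *p*=1), and the sign differed between mice, higher in 1 and lower in 3 of 4. Against non-beta cells *Dpp4* was higher in both beta cell fractions. The log2 difference was 0.87 ± 0.12 for the labelled-positive libraries (adjusted *p*=0.000171) and 0.88 ± 0.12 for the labelled-negative libraries (adjusted *p*=0.000166), and it was higher in 3 of 3 mice in each. These comparisons share the non-beta libraries.

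*Ace* encodes angiotensin-converting enzyme, which makes angiotensin II and is best known from endothelium. It was at 277, 212 and 243 CPM in the non-beta libraries of mice 1 to 3 (244 ± 32.6, *n*=3). In the labelled-positive libraries it was at 2.89, 1.10, 1.52 and 0.366 CPM, from 103, 46, 58 and 16 counts. Labelled-negative libraries had it at 1.5, 0.822, 0.805 and 0.410 CPM, from 44, 27, 29 and 15 counts. The beta cell fractions overlapped, with mouse 4 lowest in each, and all lay far under the non-beta libraries.

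Over mice 1 to 3, non-beta cells had 138 times as many *Ace* counts, scaled to library size, as the labelled-positive libraries (95% interval 120 to 158, counting error only). The ratio was 242 (199 to 298) against the labelled-negative libraries. The fitted log2 differences were −7.17 ± 0.21 (adjusted *p*=2.8e-08) and −7.84 ± 0.22 (adjusted *p*=1.5e-08). Between the beta cell fractions *Ace* differed by 0.67 ± 0.23 on the log2 scale, higher in 3 of 4 mice, and did not pass (adjusted *p*=0.732).

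*Mme* encodes neprilysin, which degrades natriuretic peptides, enkephalins and, in the test tube, glucagon and GLP-1. The non-beta libraries of mice 1 to 3 had 471, 240 and 526 counts, or 10.2, 6.36 and 14.1 CPM. The labelled-positive libraries had 0, 2, 4 and 1 counts and the labelled-negative libraries 11, 0, 27 and 1. At most 4 counts were thus found in any labelled-positive library, near the floor of 3 counts that corresponds to between 0.0649 and 0.102 CPM, and 38 of the 39 counts of the NNAT-negative fraction came from mice 1 and 3.

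Over mice 1 to 3, *Mme* was 196 times as high in non-beta cells as in the labelled-positive libraries (95% interval 90.0 to 536) and 26.4 times as high as in the labelled-negative libraries (19.1 to 37.5). These intervals cover counting error only. The fitted log2 differences were −7.50 ± 0.99 (adjusted *p*=0.000145) and −5.24 ± 0.85 (adjusted *p*=0.000556), and their size depends on how near-empty libraries are handled. Between the beta cell fractions the value was −2.26 ± 0.96 (adjusted *p*=0.858), with 95% bounds of −4.40 and −0.12. The non-beta libraries lay above all beta cell libraries for *Ace* and *Mme*, as they did for 26.2% of the genes tested.

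The members' calls were then set beside those of all genes. Between the beta cell fractions, 0 of the 4 members tested were called, where 0.0517% of all genes were called higher and 0% lower in the labelled-positive libraries (9 and 0 genes). At an unadjusted *p* below 0.05, edgeR gave 839 of 17424 genes higher and 130 lower. The total was not far above what chance alone gives at that threshold, but the split between directions was very uneven. The cause of that imbalance was not tested. *Enpep* and *Ace* were among the higher and *Mme* among the lower ones, with no adjustment for the number of genes tested. At the adjusted threshold DESeq2 called 123 genes higher, *Enpep* among them, and 14 lower. Against non-beta cells, 1 of the 4 members tested was called higher and 2 lower in the labelled-positive libraries, beside 15.8% and 19.1% of all genes (34.8% in either direction). In the labelled-negative libraries, 1 of 5 was called higher and 3 lower, beside 15.6% and 21.3% (36.8%). With so many genes called against non-beta cells, these counts do not set the members apart.

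**Figure D2:**
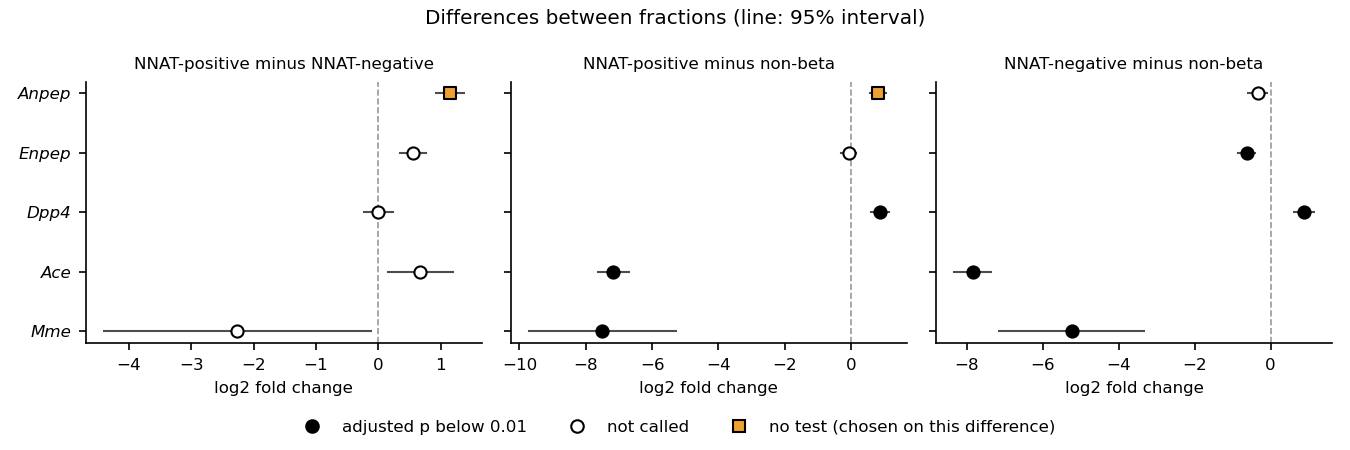
Log2 fold changes (horizontal axis; points) with 95% intervals (lines) of the 5 genes in the 3 comparisons of the edgeR fit, each panel with its own scale. Filled circles passed an adjusted *p* of 0.01, open circles did not, and squares mark the *Anpep* differences that chose it, which were not tested. The intervals at the squares are descriptions too, since that choice favoured values away from 0. Between the beta cell fractions *Dpp4* sits at 0 and *Enpep* at 0.56, and against non-beta cells *Ace* and *Mme* sit between −5.24 and −7.84.

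Levels of different genes were compared per length, as CPM divided by the summed exon length in kilobases (FPKM). In the labelled-positive libraries *Anpep* stood first at 41.8 ± 8.96 FPKM, followed by *Dpp4* at 19.6 ± 2.11, *Enpep* at 8.80 ± 1.97, *Ace* at 0.278 ± 0.201 and *Mme* at 0.0038 ± 0.0039 (SD, *n*=4). The ranges of *Anpep*, *Dpp4* and *Enpep* did not overlap there. In the labelled-negative libraries *Dpp4* at 19.6 ± 2.44 FPKM and *Anpep* at 19.3 ± 6.28 overlapped, and *Enpep* followed at 6.03 ± 1.58. In non-beta cells the order was *Ace* at 46.2 ± 6.17, *Anpep* at 25.6 ± 4.60, *Dpp4* at 11.0 ± 1.07, *Enpep* at 9.99 ± 1.15 and *Mme* at 0.886 ± 0.337 FPKM (*n*=3), and of these neighbours only *Dpp4* and *Enpep* overlapped. With the length of the longest transcript, *Dpp4* was at 23.5 FPKM in both beta cell fractions.

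*Anpep* made up 59.0% ± 4.81 (SD) of the summed FPKM of the 5 genes in the labelled-positive libraries, 42.1% ± 8.19 in the labelled-negative libraries and 27.3% ± 4.76 in non-beta cells. The share of *Dpp4* was 28.0% ± 1.94, 44.0% ± 7.20 and 11.8% ± 1.51 in the same order, and that of *Enpep* was similar throughout, at 12.7% ± 3.24, 13.4% ± 3.33 and 10.7% ± 1.65. *Ace* took 49.2% ± 5.30 in non-beta cells and less than 1% in every beta cell library. The ratio of *Anpep* to *Enpep* in FPKM was 7.10, 4.58, 3.12 and 5.07 in the labelled-positive libraries of mice 1 to 4 and 4.90, 3.27, 1.89 and 3.30 in their labelled-negative partners. It was higher in the labelled-positive library in each mouse, a direction that the choice of *Anpep* by its counts favours. Within each beta cell fraction, mice spanned a wider range of this ratio than the 2 libraries of any 1 mouse did.

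**Figure D3:**
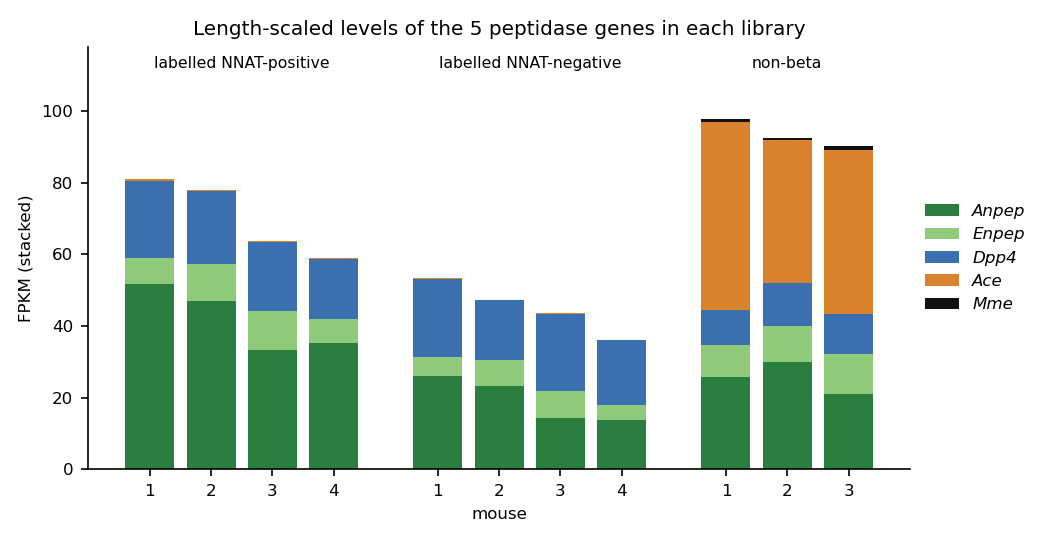
Stacked FPKM (vertical axis, from 0) of the 5 genes in each library, with the mouse number on the horizontal axis and the fractions side by side. *Anpep* fills 59.0% of the bar on average in the labelled-positive libraries and 42.1% in the labelled-negative libraries, the *Dpp4* part is of like height in both, and *Ace* is visible in non-beta cells alone.

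The beta cell fractions also differed in the mRNA of other endocrine cells. The summed CPM of 9 alpha cell markers was between 2932 and 4215 in the labelled-positive libraries, between 1711 and 2636 in the labelled-negative libraries and between 123602 and 171932 in non-beta cells. For 8 delta cell markers the ranges were 1411 to 2496, 545 to 1051 and 6924 to 13549 CPM, and for 6 PP cell markers 302 to 424, 90.9 to 164 and 1881 to 3719 CPM. Each of these sums was higher in the labelled-positive library in 4 of 4 mice, which is the direction of *Anpep* and *Enpep*. On average in the labelled-positive libraries, *Gcg* was 2823 of 3539 CPM of the alpha sum and *Sst* 1887 of 1977 of the delta sum. By mean CPM, 8 of 9 alpha, 8 of 8 delta and 4 of 6 PP cell markers were higher there. The endothelial sum was also higher in 4 of 4 mice, so the direction was not particular to endocrine markers. The stromal, leukocyte, acinar and ductal sums were higher in 2, 1, 3 and 3 of 4 mice. By the test, 0 of 9 alpha, 1 of 8 delta and 2 of 5 PP cell markers were called, namely *Rbp4*, *Ppy* and *Pyy*.

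Set against the non-beta mean, the 3 summed lists went from 1.37% to 2.38% (alpha), from 6.98% to 17.8% (delta) and from 4.45% to 11.5% (PP) between the labelled-negative and labelled-positive libraries. *Anpep* went from 75.6% to 164% of its non-beta mean and *Enpep* from 60.3% to 88.1%. *Dpp4* was at 177% of its non-beta mean in both beta cell fractions. The part of these endocrine transcripts in the *Anpep*, *Enpep* and *Ace* values between the beta cell fractions was not tested.

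*Ace* and *Mme* were high in the non-beta fraction, as were the summed markers of vessels, stroma, leukocytes, acinar cells and the other endocrine cells. Their likeness to any of these lists is therefore not particular to it. The 10 endothelial markers summed to between 2552 and 2883 CPM in non-beta cells, 7.20 to 14.9 CPM in the labelled-positive libraries and 5.82 to 12.6 CPM in the labelled-negative libraries, where 3 of them had no count. The 10 stromal and pericyte markers summed to between 3942 and 9014 CPM in non-beta cells and at most 5.25 CPM in any beta cell library, with 2 and 3 of them at 0 in the beta cell fractions. The 10 leukocyte markers were at 1246 to 2760 CPM against 49.8 to 90.7 CPM and 54.8 to 77.6 CPM, with 1 at 0 in each beta cell fraction. Most of that leukocyte sum in beta cells was *C1qa*, at 55.8 and 60.2 of 64.2 and 63.7 CPM on average. *Ace* in beta cells was at 0.602% and 0.362% of its non-beta mean, where the endothelial sum was at 0.362% and 0.297%. Most of that endothelial sum in beta cells was *Esam*, at 6.36 and 7.19 of 9.76 and 8.01 CPM on average, and the other 9 markers were each below 1 CPM on average. Acinar markers, which mark exocrine carry-over, varied most, between 11.8 and 2738 CPM in the labelled-positive libraries, highest in mouse 2, and between 19361 and 76860 CPM in non-beta cells. Ductal markers were at 380 to 503 CPM, 404 to 466 CPM and 507 to 764 CPM in the 3 fractions. Which cells of the non-beta fraction carried *Ace* or *Mme* was not tested.

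**Figure D4:**
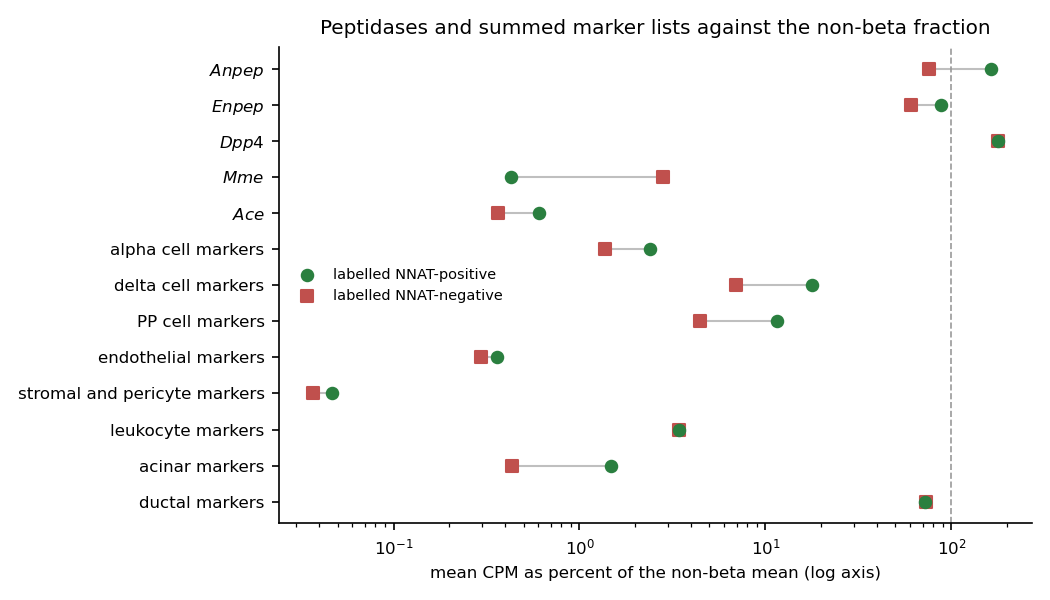
Mean CPM in the beta cell fractions (circles, labelled NNAT-positive; squares, labelled NNAT-negative) as a percent of the non-beta mean (logarithmic horizontal axis; dashed line at 100%) for the 5 genes and for the summed markers of 8 other cell types. *Anpep* is the one gene with a circle to the right of the line and its square, at 75.6%, to the left, and *Ace* lies at 0.602% and 0.362%.

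Other genes of the members' families were taken from lists of symbols. Counts called in these and the following lists stand beside 0.0517% of all genes called between the beta cell fractions. Against non-beta cells the shares of all genes were 34.8% for the labelled-positive and 36.8% for the labelled-negative libraries. Of the 8 other M1 aminopeptidases tested, the family of *Anpep* and *Enpep*, 0 were called between the beta cell fractions, with a median log2 difference of 0.02 beside 0.05 over all genes. *Lnpep*, the insulin-regulated aminopeptidase that travels with GLUT4 vesicles, was at 149 ± 1.45 and 141 ± 19.9 CPM in the labelled-positive and labelled-negative libraries (log2 difference 0.08, adjusted *p*=0.957). Against non-beta cells 4 and 3 of these 8 were higher in the 2 beta cell fractions and 1 lower in each. Those higher included *Aopep* (1.05 and 1.23), *Npepps* (0.46 and 0.48) and *Rnpepl1* (0.46 and 0.45), given as log2 differences in the labelled-positive and labelled-negative libraries. *Lvrn*, laeverin, was the lower one, with 914 counts in non-beta cells, 2 in the labelled-positive libraries and 0 in the labelled-negative libraries, so that non-beta cells were at least 339-fold higher than the latter by a floor of 3 counts over the group.

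Of the 10 other prolyl peptidases tested, from the S9 family of *Dpp4* and, for *Dpp7* and *Prcp*, the S28 family, 0 were called between the beta cell fractions (median 0.18). Against non-beta cells 3 were higher and 4 lower in each beta cell fraction. *Prepl* was higher by 0.98 and 0.96, *Dpp9* by 0.81 and 0.70 and *Dpp7* by 0.58 and 0.52 on the log2 scale. *Fap*, the fibroblast activation protein and nearest relative of *Dpp4*, had 13 and 0 counts in the beta cell fractions and 8.96 ± 2.17 CPM in non-beta cells, at least 398-fold above the labelled-negative libraries. *Prcp* (−2.90 and −3.21) and *Dpp10* (−2.48 and −2.78), a homologue without peptidase activity that binds potassium channels, were also lower. The direction of *Dpp4* against non-beta cells was that of *Dpp9*, whose enzyme works inside the cell, and not that of *Fap*.

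In the M13 family of *Mme*, 2 of the 6 other genes passed the filter on low counts. *Ece1*, which makes endothelin, was at 820 ± 151, 700 ± 144 and 512 ± 35.9 CPM in the labelled-positive libraries, the labelled-negative libraries and non-beta cells, opposite in direction to *Mme*, and was higher in each beta cell fraction (log2 difference 0.79, adjusted *p*=0.000496, and 0.56, adjusted *p*=0.0040).

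Of the 24 other cell-surface peptidases tested, 0 were called between the beta cell fractions (median 0.09). Against non-beta cells 6 were higher in each beta cell fraction, and 11 and 12 were lower. The higher ones were led by *Bace2*, a secretase known to cleave collectrin in beta cells (3.82 and 3.85), *Tmprss4* (3.80 and 4.01) and *Ggt7* (2.28 and 2.16). The lower ones were led by *Dpep1* (−11.2 and −10.8), *Ggt5* and *Naalad2*, with *Ggt5* at 17.3 ± 3.43 CPM in non-beta cells and at 5 and 0 counts in the beta cell fractions, and *Xpnpep2* at −7.60 in the labelled-positive libraries. Over the 44 peptidases tested beside the members in these lists, 14 were higher and 16 lower in the labelled-positive libraries than in non-beta cells, with a median log2 difference of −0.27 beside −0.06 over all genes. Of all genes tested, 15.8% were higher and 19.1% lower. Between the beta cell fractions 0 of the 44 were called beside 0.0517% of all genes, a share at which 0 is a likely count for such a list.

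**Figure D5:**
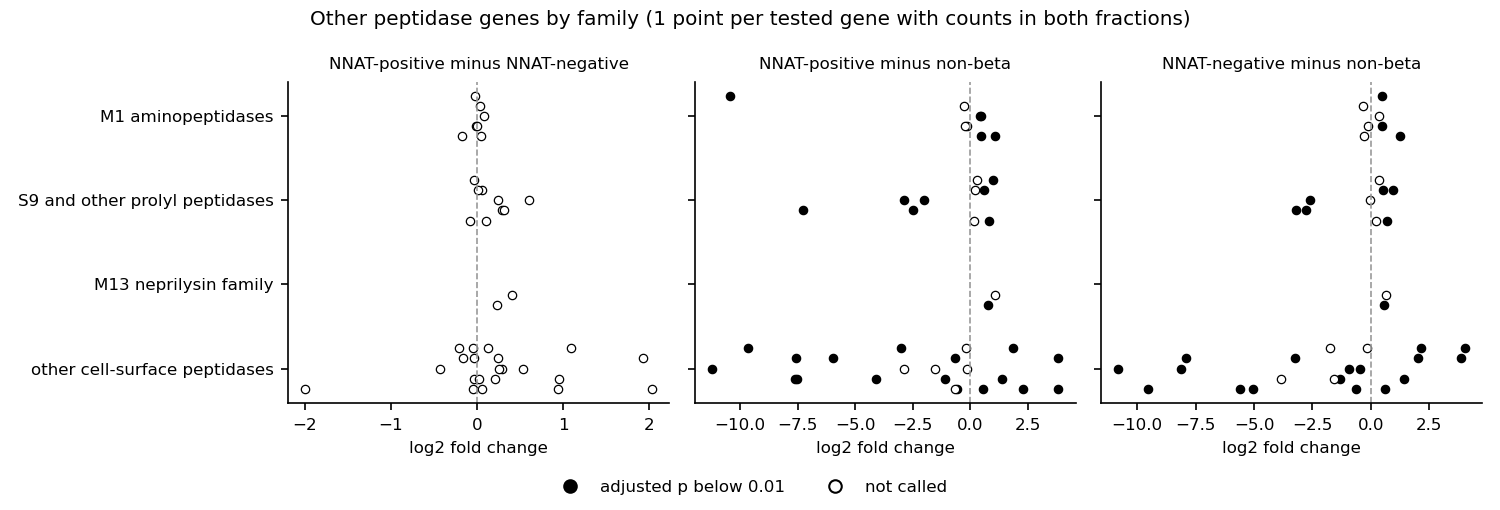
Log2 fold changes (horizontal axis, scale differing between panels) of peptidase genes other than the 5 members, by family, in the 3 comparisons, with 1 point for each tested gene that had counts in both fractions. Filled points passed an adjusted *p* of 0.01: 0 of 44 tested genes between the beta cell fractions, and 14 higher and 16 lower in the labelled-positive libraries than in non-beta cells. The shares over all genes tested were 0.0517%, 15.8% and 19.1% in the same order.

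The partners of these enzymes were divided among the fractions. In the angiotensin pathway 0 of 6 tested genes were called between the beta cell fractions. *Agtr1a*, the main receptor of angiotensin II, was at 10.2 ± 0.344 CPM in non-beta cells and had no count in any of the 8 beta cell libraries, so that non-beta cells were at least 540-fold and 457-fold higher. *Agt*, which encodes the precursor angiotensinogen, was lower in the beta cell fractions by −0.80 and −1.19, and *Mas1*, a receptor of the shortened angiotensin, had 3 and 0 counts there and 160 in non-beta cells. *Atp6ap2*, the prorenin receptor and an accessory subunit of the vacuolar proton pump, was higher in them by 1.31 and 1.52.

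Among peptide substrates and their receptors, 2 of 12 tested genes were called between the beta cell fractions. *Pyy*, peptide YY, which DPP4 trims, was at 213 ± 24.5 and 85.5 ± 19.7 CPM in the labelled-positive and labelled-negative libraries (log2 difference 1.35, adjusted *p*=0.00751). *Ppy*, pancreatic polypeptide, was at 132 ± 31.5 and 46.5 ± 12.7 CPM (1.53, adjusted *p*=0.00764). Against non-beta cells 5 were higher and 6 lower in each beta cell fraction. *Glp1r*, the receptor for GLP-1, which DPP4 cuts, was on the beta cell side, higher by 4.31 and 4.27, and so were the glucagon receptor gene *Gcgr* (4.70 and 4.67) and *Iapp*, amylin (3.41 and 3.47). *Gcg*, the precursor of glucagon and GLP-1 (−5.63 and −6.69), and *Cxcl12*, a chemokine that DPP4 also clips (−7.67 and −7.99), were on the non-beta side, and *Npy1r*, a receptor for peptide YY, had no count in beta cells and 7.14 ± 4.99 CPM in non-beta cells.

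Of the 13 tested brush-border genes, which accompany these peptidases on gut and kidney epithelium, 0 were called between the beta cell fractions (median 0.11). *Slc6a19*, a neutral amino acid transporter of the gut brush border, was higher than in non-beta cells by 4.21 and 4.10, and *Vil1*, villin, by 2.91 in each. *Cdhr5* had 2 and 0 counts in the beta cell fractions and 219 in non-beta cells, and *Alpl* (−6.91 and −6.35), *Cdhr2* (−1.46 and −1.31) and *Cltrn*, collectrin (−1.13 and −1.41) were lower in beta cells.

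The genes whose log2 CPM was most like that of each member were sought over the 11 libraries, which come from 4 mice and share depth and fraction. For *Anpep* these were *Appbp2os* (Pearson *r* 0.84), *Gm17450* (0.79), *Ell* (0.79), *Gfra4* (0.79) and *Slc39a14* (0.76). The first 2 were below 1 CPM in every fraction on average, and none of the 5 stayed in the list when the 8 beta cell libraries alone were used. *Enpep* was most like *Pcdhga11* (0.94), *Dtx1* (0.89) and *Cldn3* (0.89). *Dpp4* went with *Efcab1*, *Lmbrd2* and *Tmem150c* (0.99 each), *Ace* with *Lama5* (0.996), *Glud1* (0.99) and *Cavin1* (0.99), and *Mme* with *Mgst1*, *Itm2a* and *Tlr13* (0.97 each). Of the 3 genes listed for each of these 4 members, 0 stayed with the 8 beta cell libraries alone, and with Spearman's rho 1 stayed for *Ace* and 0 for each of the others. For the last 3 members the non-beta libraries stood apart from the beta cell libraries, as they did for 26.2% of tested genes that were higher and 16.5% that were lower in all non-beta libraries.

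Among the members themselves, *Anpep* and *Enpep* had an *r* of 0.42 over the 11 libraries and 0.59 over the 8 beta cell libraries, and *Anpep* and *Dpp4* 0.14 in both. *Dpp4* and *Ace* had an *r* of −0.87 over the 11 libraries and 0.71 over the 8 beta cell libraries, so that the sign turned once the non-beta libraries were left out. *Ace* and *Mme* went from 0.91 to 0.06. These correlations are descriptions over libraries that share mice.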

How the data were processed

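RNA-seq of sorted islet cells gave 11 libraries. By the study's methods and the submitters' processing notes, the authors isolated poly(A) RNA, prepared directional libraries, aligned reads to mm10 with STAR 2.7.1a and deposited raw counts per GENCODE gene, which were whole numbers with no normalisation. The strand setting of the counting is not given in the sources used here. The notes also name DESeq2 1.32.0. No 2 of the 55 pairs of libraries were identical.

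Counts were analysed in R 4.3.3 with the quasi-likelihood test of edgeR 4.0.16 on TMM-scaled library sizes. filterByExpr, grouped by fraction, left 17424 genes, the 5 members included. The fit held all 11 libraries and a term for each mouse (the block). Replicate numbers of the labels gave the mouse, since the study's replicates are individual mice. Deviations from the group means of beta cell libraries with the same number had a mean *r* of 0.31 (0.18 to 0.66, 4 pairs), those of other pairs −0.10. The second value largely follows from the first through the centring on group means, so it is no separate evidence for the pairing. With non-beta cells the lowest same-number *r* was 0.100 and 0.0369. *P* values were Benjamini-Hochberg adjusted over all tested genes and called below 0.01. SEs are the log2 difference over the root of *F*. CPM rest on TMM library sizes, FPKM summed exon lengths of a GENCODE release on GRCm38 that matched 55141 gene identifiers, and log2 CPM a prior count of 2. The floor was 3 counts, which like the ratio intervals (exact binomial, 95%) covers counting error only. PCR duplicates cannot be told apart in counts.

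Members, gene lists and tests were chosen with earlier results of these data known. Named genes were the members, *Nnat*, near relatives (1 is not reported here), list genes called between the beta cell fractions, at most 3 per direction and list with the largest change in each comparison with non-beta cells, and the 5 (*Anpep*) or 3 genes most alike. *Rbp4*, *Sst*, *C1qa* and *Esam* were named after their values were seen. The symbols *Si* and *Tmem27* matched no row, and rows with other names for these genes were not sought when the lists were matched. *Tmem27* is an earlier symbol of *Cltrn*, which was counted among the brush-border genes and left out of the alpha cell sum. In simulated counts for NNAT-positive against NNAT-negative with 16549 tested genes, the test recovered 34 of 100 genes changed 2-fold and 61 of 100 changed 4-fold, with 0 unchanged genes called. The simulated beta cell means carried no mouse effects while the non-beta means kept theirs, unlike the data. Changed genes were drawn from all levels of expression, so these rates do not give the power for the members. Alternatives covered the block, RLE factors, DESeq2 1.42.0, no filter, fewer libraries, thresholds, transcript length and the correlation, and leaving out each mouse.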

Additional observations from a re-analysis of the deposited data

Results flagged for a closer look

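The *Nnat* level of mouse 4 stood apart from those of the other 3 mice in both beta cell fractions, at 101 CPM in the labelled-positive library and 153 CPM in the labelled-negative library. Each passed Dixon's test for a group of 4, as 2 of 12 groups of members and *Nnat* did, where chance flags about 1 group in 20. No member passed it. Without mouse 4 the log2 difference between the beta cell fractions was 1.03 for *Anpep*, 0.46 for *Enpep* (adjusted *p*=0.466) and 0.0024 for *Dpp4*.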

How the results depend on the processing

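Of 116 recomputed member comparisons with a test 106 kept their direction and their side of the threshold. The 18 of *Anpep* without a test kept their direction, for which *Anpep* had been chosen. With no replicate block, *Enpep* fell short of the threshold between the labelled-negative libraries and non-beta cells (−0.73, adjusted *p*=0.0184), 1 gene in place of 9 was called higher between the beta cell fractions, and *Dpp4* turned to 0.00044 there. The block changed no other member call. With the libraries of the fractions compared alone, *Enpep* fell short likewise (−0.60, adjusted *p*=0.0157) and 1513 genes in place of 2711 were higher in the labelled-negative libraries than in non-beta cells. DESeq2 called *Enpep* between the beta cell fractions (0.52, adjusted *p*=5.58e-05) and *Anpep* between the labelled-negative libraries and non-beta cells (−0.40, adjusted *p*=0.00133), and called 123 genes higher and 14 lower between the beta cell fractions. With no filter 29 were higher and 1 lower there, and at an adjusted *p* below 0.05 18 were higher. A further limit of 2-fold left 1068 and 1076 genes higher in the beta cell fractions than in non-beta cells. The causes were not tested, beyond the fewer libraries or the changed thresholds themselves.

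With 1 mouse left out, the log2 difference between the beta cell fractions ran from 1.03 to 1.20 for *Anpep*, 0.46 to 0.59 for *Enpep*, −0.092 to 0.049 for *Dpp4* (0.00015, 0.049 and 0.0024 without mice 1, 3 and 4), −2.94 to −1.59 for *Mme* and 0.51 to 0.76 for *Ace*, and 0 to 5 genes were called higher. For *Enpep* against non-beta cells it ran from −0.16 to 0.035 in the labelled-positive libraries (0.035 without mouse 1), and for *Anpep* from −0.50 to −0.24 in the labelled-negative libraries, called without mouse 1. Genes higher than in non-beta cells numbered 1811 to 2462 and 1738 to 2463, both lowest without mouse 3. With the longest transcript as length, *Dpp4* was at 23.5 FPKM in both beta cell fractions and 13.2 in non-beta cells, where *Enpep* was at 11.2 and *Mme* at 1.27. Spearman's rho kept 2 of the 5 genes most like *Anpep*, and the 8 beta cell libraries kept 0. Depth limits *Mme*, at 0 to 27 counts in beta cell libraries, whose level there is near the floor.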
